A study of Mus musculus with 6 samples.

Results

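TRIM proteins, most of them ubiquitin ligases, are named for a shared tripartite motif, and they were described here as a family in mouse AML1-ETO9a (AE9a) leukemia. The members were all genes whose symbol was Trim followed by a number and at most one letter from a to d, with Trim25 left out. A normalized count is a read count divided by the size factor of its library. The table held 67 such genes among 53618 with a gene name, and 37 of them had at least 10 normalized counts in 3 or more of the 6 libraries and were tested. That was 55.2% of the members, against 22.9% of all named genes. The shares are not like for like. All members are annotated as protein-coding genes, while the named genes were not limited to these, and 29371 of them were at 0 in every library. RNA-seq had been done on GFP+ Lin- c-Kit+ leukemia cells sorted from the spleens of recipient mice, 3 mice per group.

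Leukemia cells of both groups were Usp18+/f UBCER-Cre, so 1 Usp18 allele was floxed and a ubiquitously expressed, tamoxifen-activated Cre was present in oil and tamoxifen mice alike. The donor cells were fetal liver cells transduced with a retrovirus carrying AE9a and GFP, and they had been passed into C57BL/6 adults after sub-lethal irradiation. Once sick, the recipients received oil (Usp18+/f) or tamoxifen (Usp18+/Δ), and cells were taken 3 days after the first injection. No group received tamoxifen without the floxed allele, so an effect of the drug itself and an effect of the deletion cannot be told apart. USP18 removes the ubiquitin-like protein ISG15 and restrains interferon signalling, and the comparison asked what its partial loss did to the transcriptome.

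A typical TRIM protein carries a RING domain that recruits the ubiquitin-conjugating enzyme, B-box zinc fingers and a coiled coil through which the protein pairs, but not every member has all of these. A variable C-terminal domain, often the PRY-SPRY domain, picks the substrate. Many members are made in larger amounts after interferon and either bind viral components directly or tune the sensors and adaptors that lead to interferon production. Others work far from immunity, as corepressors on chromatin, as ligases for p53 and cell-cycle proteins, in vesicle traffic, in muscle, or in the last steps of red cell formation. The tandem copies on mouse chromosome 7, which include the Trim5, Trim12, Trim30 and Trim34 genes, are the rodent relatives of the retroviral restriction factor TRIM5.

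The libraries held between 19172471 and 23785143 recovered reads. The library labelled tamoxifen 1 stood apart from the rest. Its median correlation with the other libraries was 0.913, against 0.981 to 0.990 for the others, and its mitochondrial share of reads was 0.00923% against 1.011% to 1.56%. Over tested protein-coding genes, its deviation from the median of all libraries followed transcript GC content. The Spearman coefficient was 0.706, against -0.228 to 0.0344 for the others. Main results are therefore given with and without it. Usp18 itself, counted over the whole gene, was higher and not lower in tamoxifen. Its normalized counts were 217, 214 and 176 in the oil libraries and 477, 329 and 284 in the tamoxifen libraries. The difference did not pass the limma test (adjusted p = 0.666, and 0.181 without tamoxifen 1). Usp18 is also on the list of interferon-stimulated reference genes summarized below. Its whole-gene counts do not show whether the floxed exons were lost, so the groups are called by their labels. The sort marker Kit (4687 to 10976) and the progenitor genes Myb (5328 to 6692 in oil and 3097 to 5188 in tamoxifen, without overlap) and Cd34 (201 to 1052) were present in every library, while Ptprc, the common leukocyte antigen, was at 8.08 or less throughout. Interferon-stimulated genes from a list of reference genes had a median log2 fold change of 1.13 over 20 tested genes, with 18 higher in tamoxifen, and 16 were higher without overlap between groups (7.86% of all tested genes). Without tamoxifen 1 the median was 0.85, with 19 higher.

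A short promoter motif recurred among the tandem chromosome 7 members, and its windows are shown first because much of what follows concerns these genes. Promoters, taken from RefSeq on GRCm38.p6, ran from 250 bases before to 50 bases after each transcript start and were available for 52 members, 30 of them tested. They were searched on both strands for GAAA, any 2 bases and GAAA again (TTTC, any 2 bases and TTTC on the other strand), the core of the interferon-stimulated response element that the ISGF3 complex and interferon regulatory factors bind. The letters were present in 3.99% of 27025 genes with a promoter and in 3.72% of 9024 tested genes, against 9 of the 52 members (17.3%) and 8 of the 30 tested ones (26.7%). Of these 8 genes, 7 lie on chromosome 7 and 1, Trim26, lies in the major histocompatibility region of chromosome 17. A match is a run of letters in a window and not a measured binding site. The 30 bases around each match are given below, 5′ to 3′ on the gene's own strand, with the match in capitals.
Trim30d: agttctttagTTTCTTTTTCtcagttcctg
Trim30a: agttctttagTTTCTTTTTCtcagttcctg
Trim12a: agagttgtggTTTCTGTTTCatttccagag
Trim5: agagttgtggTTTCTGTTTCatttccagag
Trim12c: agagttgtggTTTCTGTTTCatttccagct
Trim34a: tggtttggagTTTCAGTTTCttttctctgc
Trim21: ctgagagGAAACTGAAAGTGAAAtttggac
Trim26: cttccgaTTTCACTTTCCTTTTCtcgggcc

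The Trim30d and Trim30a runs were identical over all 30 bases, and their promoters matched at 93.6% of 295 aligned positions. The Trim30d run lay at chr7:104507871-104507900 on the minus strand, and its match began 41 bases before the start. That of Trim30a lay at chr7:104465210-104465239 on the minus strand, with the match 36 bases before the start, and a second Trim30a start also held a match. The Trim12a run at chr7:104315466-104315495 and the Trim5 run at chr7:104288136-104288165, both on the minus strand, were also identical, within promoters that matched at all 241 positions compared. For Trim12a, Trim5 and the second Trim30a start, the bases just after the RefSeq start were not found in a GENCODE transcript of the gene. Trim12c, at chr7:104353359-104353388 on the minus strand, kept 28 of the 30 bases of Trim12a. Trim34a was at chr7:104244457-104244486 on the plus strand. Trim21, at chr7:102565447-102565476 on the minus strand, and Trim26, at chr17:36836979-36837008 on the plus strand, each held 2 overlapping matches, so their capitals run longer. In Trim21 the match began 13 bases after the start and in Trim26 160 bases before it. The ninth member with the letters, Trim2, was not tested.

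The tested members covered a wide range of levels. Levels were compared as normalized counts per kilobase of exon. In oil mice the median over the tested members was 125 per kilobase, against 149 over all tested genes with a known length. Trim28, the scaffold corepressor that KRAB zinc finger proteins recruit to silence retroelements, was highest at 2169 ± 108 (SD, n = 3). Trim59, a membrane-anchored ligase linked to p53 turnover, followed at 604 ± 28.5 and Trim35, first found as a factor in hematopoietic lineage choice, at 540 ± 39.5. Trim27 was at 479 ± 31.9 and Trim8 at 421 ± 46.0. The oil libraries of Trim28 did not overlap those of any other member. Those of Trim59 and Trim35 overlapped, as did those of Trim35 and Trim27 and those of Trim27 and Trim8. Of the 36 neighbouring pairs in the order of levels, 25 overlapped in the oil libraries. At the low end stood Trim66 (1.40), Trim45 (2.18) and Trim7 (4.65), and the oil libraries of Trim45 overlapped those of both others.

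The oil libraries were close to each other for most members, with a median coefficient of variation of 8.65% (1.19% to 48.6%). Of the 30 members that were not tested, 12 were at 0 in every library and 18 had at least 1 read somewhere, and the highest value among them was 19.1, for Trim30b. All 4 members of the muscle group were below the filter.

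Across the family, few members passed a test with all 6 libraries, and which did depended on the tool. With unweighted limma, 0 of 37 had an adjusted p under 0.05 (0% of all 12298 genes), and 1, Trim58, had an unadjusted p under 0.05 (4.47% of all genes). DESeq2 on the recovered reads called 1 of the 46 members it gave an adjusted p, again Trim58 (0.464% of all genes), and had 4 of 55 at an unadjusted p under 0.05 (3.65%). With edgeR 0 of 37 were called (0%), and 3 had an unadjusted p under 0.05 (4.85%). By direction, 28 of 37 members had a higher fitted level in tamoxifen (48.4% of all genes). The median log2 fold change was 0.28 over the members and -0.017 over all genes.

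**Figure D1:**
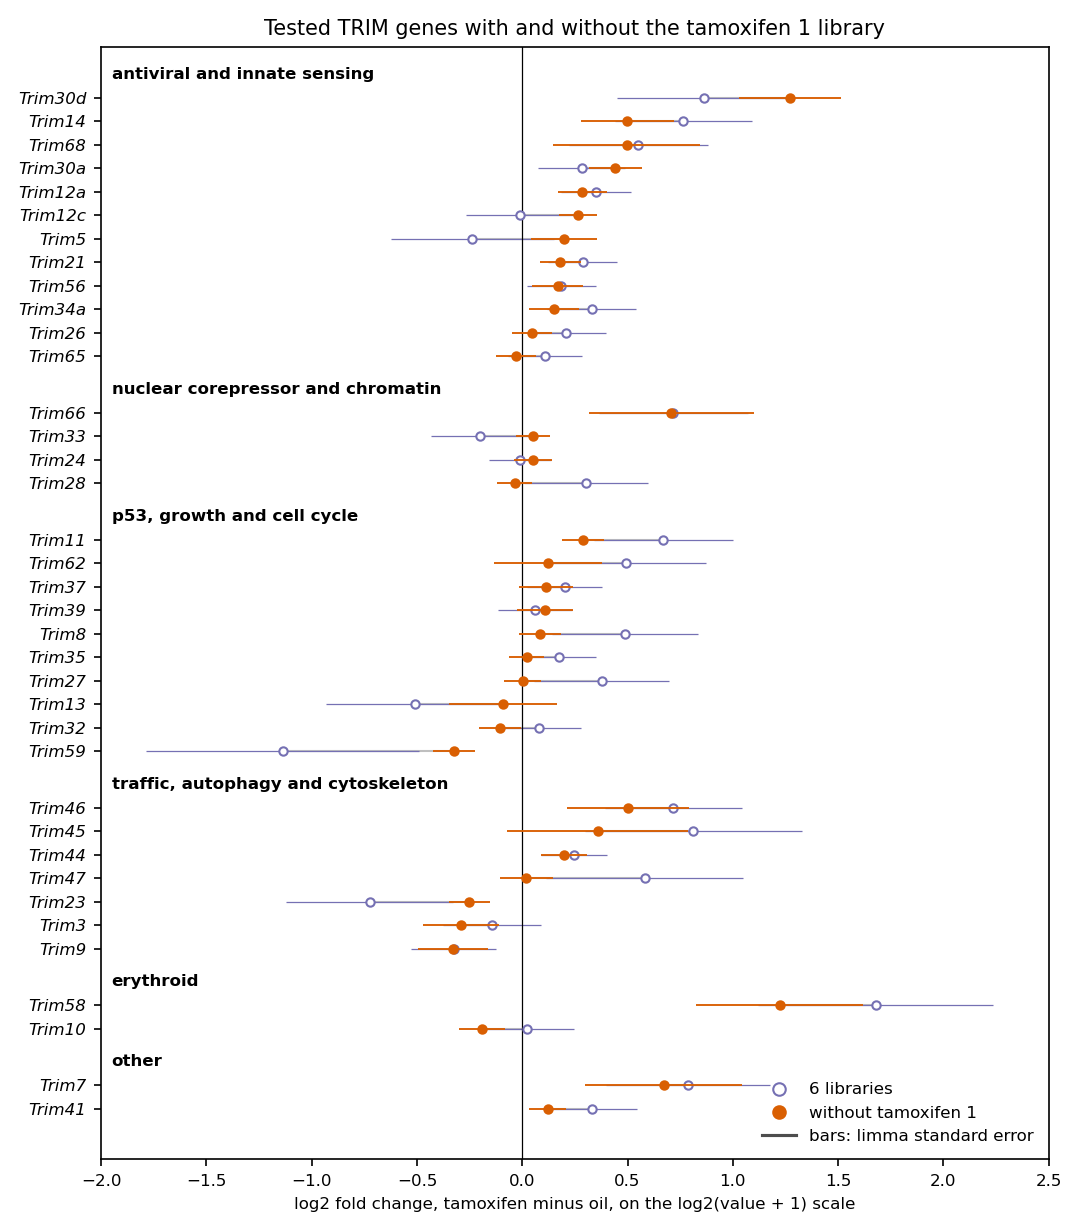
The log2 fold change of each of the 37 tested TRIM genes, tamoxifen minus oil, with all 6 libraries (open circles) and without the tamoxifen 1 library (filled circles), by role; bars are limma standard errors. With 6 libraries 28 genes lie to the right of 0, and the bars of most genes are shorter once tamoxifen 1 is left out.

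The tamoxifen 1 library set much of that median. It was the highest of the 6 libraries for 23 of the 37 members and the lowest for 7, against 41.1% and 41.6% of all tested genes. Without it, 28 of 37 members were still higher (44.8% of all genes), but the median was 0.12 against -0.021 over all genes. Between the fits 24 members kept a positive and 5 a negative direction, and 8 turned: Trim5, Trim10, Trim12c, Trim24, Trim28, Trim32, Trim33 and Trim65. Without this library limma called no member (0.333% of all genes), while 9 had an unadjusted p under 0.05 (12.1%). Of these, 7 were higher (6.04%), namely Trim11, Trim12a, Trim12c, Trim14, Trim30a, Trim30d and Trim58, and 2 were lower (6.06%), Trim23 and Trim59. These 9 were chosen by their p-values and not by the rule for named genes. At the same unadjusted threshold and without tamoxifen 1, DESeq2 gave 8 of 54 members (5.33%) and edgeR 8 of 37 (12%). Limma with library weights, which keeps all 6 libraries, gave 13 of 37 (23.4%).

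The direction of a member's deviation in tamoxifen 1 followed the GC content of its transcript, which ran from 37.4% to 64.1%. Over the 37 members the Spearman coefficient was 0.815, and it was 0.683 over 12141 genes. These points share libraries, and the coefficients are descriptions. Of the 11 members below 45% GC, 9 were lower in tamoxifen 1 than the median of the other 5 libraries, with a median deviation of -0.65. Of the 17 between 45% and 55% GC, 15 were higher, with a median of 0.47. All 9 above 55% GC were higher, with a median of 1.23. Without tamoxifen 1 the median log2 fold changes of these 3 classes were 0.15, 0.11 and 0.12.

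**Figure D2:**
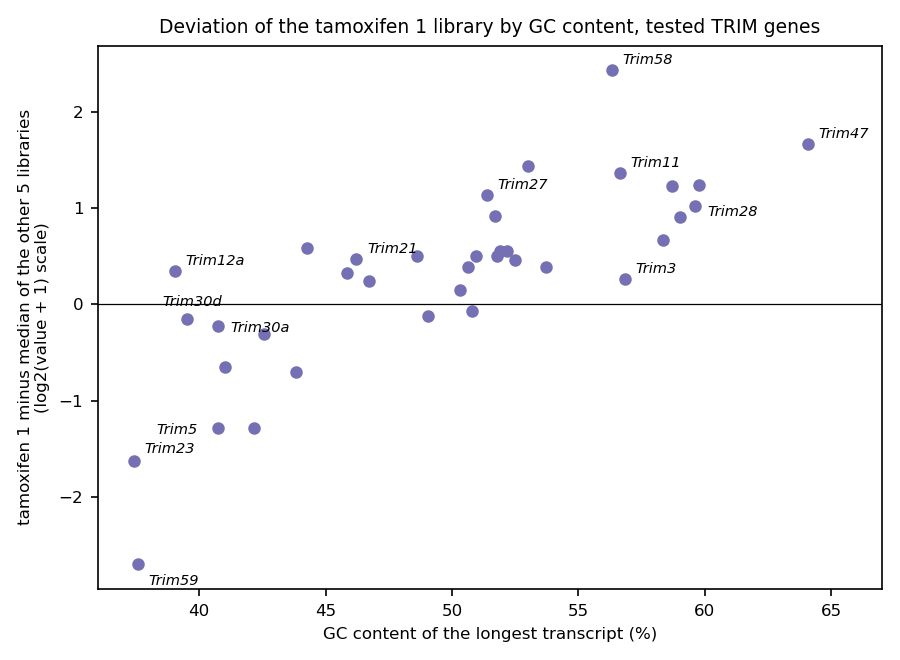
The deviation of the tamoxifen 1 library from the median of the other 5 libraries, on the log2(value + 1) scale, against the GC content of the longest transcript in percent; each point is 1 tested TRIM gene. Genes below 45% GC lie mostly under 0, down to -2.70 for Trim59, and the 9 genes above 55% GC all lie over 0, up to 2.43 for Trim58.

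The antiviral and innate sensing members, 19 by name and 12 tested, were mostly higher. With 6 libraries 10 of 12 were higher in tamoxifen and the median log2 fold change was 0.28. Without tamoxifen 1, 11 of 12 were higher with a median of 0.23, and 5 did not overlap the oil libraries: Trim12a, Trim12c, Trim21, Trim30a and Trim30d. The background for that count was 12.6% of all genes. No member of the group passed an adjusted p of 0.05 in either limma fit.

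Trim30d, an interferon-responsive copy of Trim30a (chr7:104470014-104507849, minus strand), differed most within this group. Its normalized counts were 50.3, 54.0 and 39.0 in the oil libraries and 48.6, 99.0 and 136 in the tamoxifen libraries. Tamoxifen 2 and 3 lay well above all oil libraries, while tamoxifen 1 lay among them. The log2 fold change was 0.86 ± 0.41 (SE, limma adjusted p = 0.666, n = 3 per group). Without tamoxifen 1 it was 1.27 ± 0.24 (limma adjusted p = 0.0819), with means 2.45-fold apart. DESeq2 called it higher without that library (1.31, adjusted p = 0.00819; 1.81% of all genes called), and edgeR did not (adjusted p = 0.0684; 0.374%). Limma with estimated library weights, which gave tamoxifen 1 a weight of 0.0377, also called it (1.34, adjusted p = 0.00508; 6.36% of all genes called). Over all alternatives its adjusted p ran from 0.00508 to 0.861.

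Trim30a, which dampens Toll-like receptor signalling by removing TAB2 and TAB3 (chr7:104409025-104465193, minus strand), was far more abundant. It had 856, 956 and 721 normalized counts in oil and 818, 1076 and 1208 in tamoxifen. Again tamoxifen 2 and 3 were above every oil library and tamoxifen 1 was not. The log2 fold change was 0.28 ± 0.21 (limma adjusted p = 0.666), and 0.44 ± 0.12 without tamoxifen 1 (limma adjusted p = 0.200). With library weights the adjusted p was 0.0401 in limma. Of the 100-base stretches of their transcripts, 4.41% of those of Trim30a and 4.57% of those of Trim30d occurred in another gene, each mostly in the other of the pair, so some reads could have been counted for either.

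The 3 TRIM5 relatives shared the low value in tamoxifen 1 only in part. Trim12a (chr7:104299894-104315466, minus strand) had 483, 578 and 526 in oil and 734, 599 and 690 in tamoxifen, with no overlap. Its log2 fold change was 0.35 ± 0.17 (limma adjusted p = 0.666), and 0.29 ± 0.12 without tamoxifen 1 (limma adjusted p = 0.376). Trim12c (chr7:104338754-104353362, minus strand) had 1271, 1224 and 1102 in oil and 810, 1422 and 1454 in tamoxifen. It was lowest of all libraries in tamoxifen 1 and highest in tamoxifen 2 and 3, so its log2 fold change turned from -0.011 to 0.26 when tamoxifen 1 was left out (limma adjusted p = 0.984 and 0.284). Trim5 (chr7:104263386-104288094, minus strand) had 155, 189 and 156 in oil and 76.7, 193 and 188 in tamoxifen. Here tamoxifen 3 lay within the oil range, and the log2 fold change turned from -0.24 to 0.20 (limma adjusted p = 0.763 and 0.653). Shared 100-base stretches made up 11.7% of the Trim5 transcripts, 8.05% of those of Trim12c and 3.29% of those of Trim12a.

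Trim21, the cytosolic antibody receptor that sends antibody-coated virus to the proteasome (chr7:102557921-102565486, minus strand), had 519, 491 and 515 in oil and 720, 577 and 575 in tamoxifen. Every tamoxifen library was above every oil library, by little in tamoxifen 2 and 3. The log2 fold change was 0.29 ± 0.17 (limma adjusted p = 0.666) and 0.18 ± 0.10 without tamoxifen 1 (limma adjusted p = 0.502). Trim34a (chr7:104244457-104262234, plus strand) had 371, 419 and 357 in oil and 616, 436 and 409 in tamoxifen. Tamoxifen 1 was the high library and tamoxifen 3 fell within the oil range. Its log2 fold change was 0.33 ± 0.21 and 0.15 ± 0.12 without tamoxifen 1 (limma adjusted p = 0.666 and 0.657). Trim34a shared 39.0% of its 100-base stretches with other genes, mostly Trim34b, and 23.5% of its exon bases lay opposite another gene, so its value is uncertain. Trim68, reported to restrain type I interferon production (chr7:102677582-102687327, minus strand), was low, with 15.3, 22.2 and 26.0 in oil and 33.2, 25.3 and 34.6 in tamoxifen. The groups overlapped, and the log2 fold change was 0.55 ± 0.33 (limma adjusted p = 0.666), and 0.50 ± 0.35 without tamoxifen 1 (limma adjusted p = 0.611).

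**Figure D3:**
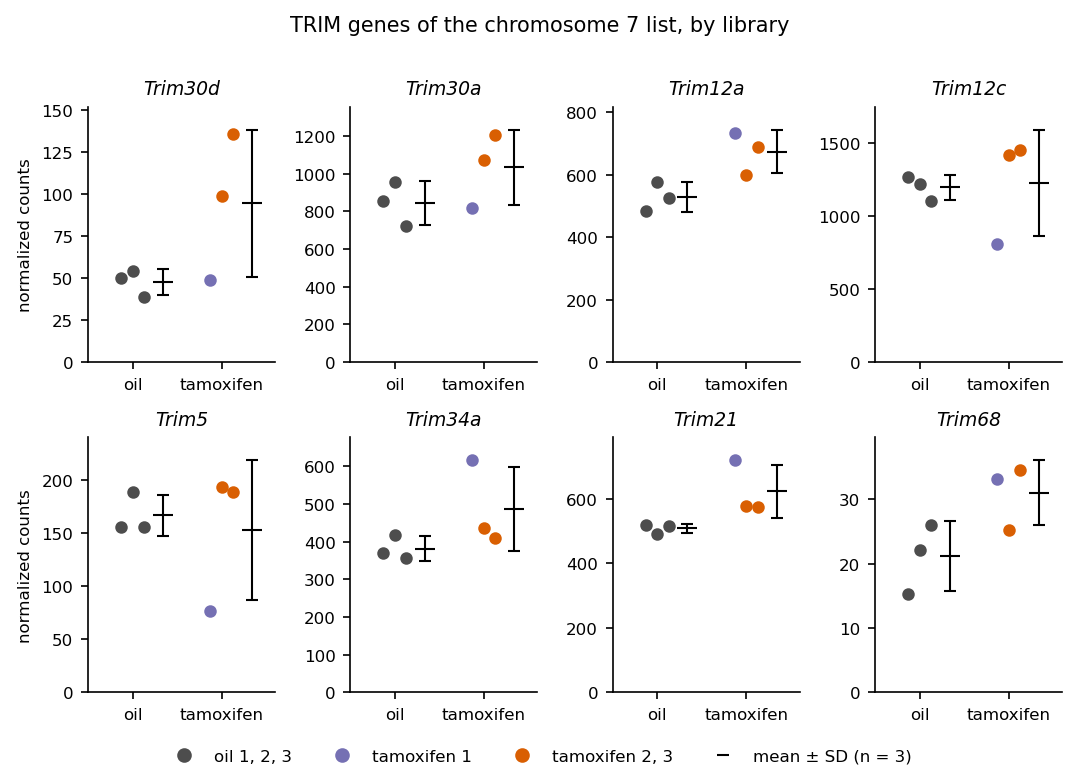
Normalized counts of the 8 tested TRIM genes of the chromosome 7 list, by library, with the mean and SD of each group of 3; every axis starts at 0. In Trim30d, Trim30a and Trim12c the tamoxifen 2 and 3 libraries lie above the oil libraries and tamoxifen 1 does not, and in Trim21 and Trim34a tamoxifen 1 is the highest.

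The chromosome 7 list held the tandem genes Trim5, Trim6, Trim12a, Trim12c, Trim30a to Trim30d, Trim34a and Trim34b, with Trim21 and Trim68. It was not every member on the chromosome: the tested Trim3, Trim28 and Trim66 and the untested Trim72 were outside it, and without tamoxifen 1 Trim3 was at -0.29 (lower without overlap), Trim28 at -0.036 and Trim66 at 0.71. Of the 12 genes listed, 8 were tested, and all 8 were higher without tamoxifen 1, with a median log2 fold change of 0.275 (6 of 8 with all libraries, median 0.31). The other 4 stayed below the filter. Trim30b had 9, 6 and 5 reads in oil and 12, 6 and 21 in tamoxifen, overlapping in tamoxifen 2. Trim34b had 3, 4 and 1 reads in oil and 7, 5 and 9 in tamoxifen. At these counts a difference was not resolved. Trim30c reached at most 7 reads in any library and Trim6 also at most 7.

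Members with the promoter letters and members without them can be set side by side. Apart from Trim26, the tested members with the letters are all on the chromosome 7 list, so this set largely repeats that list. The windows of Trim30a and Trim30d, and those of Trim5 and Trim12a, are near copies and not separate cases. Without tamoxifen 1 the 8 tested members with the letters were all higher, with a median log2 fold change of 0.23. The 22 other tested members with a promoter had a median of 0.11, with 15 higher and 7 lower. With all libraries 6 of the 8 and 17 of the 22 were higher, and the medians were 0.28 and 0.275. Over all 336 tested genes with the letters, 174 were higher with all libraries (median 0.013) and 173 without tamoxifen 1 (median 0.0060). At the low end of the 8 stood Trim26, which acts on IRF3 signalling, at 0.046 without tamoxifen 1.

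Trim14, an adaptor at the mitochondrial antiviral protein MAVS, was named after its values were seen. It had 352, 244 and 195 in oil and 630, 334 and 392 in tamoxifen, so tamoxifen 2 lay within the oil range. Its log2 fold change was 0.76 ± 0.33 (limma adjusted p = 0.666) and 0.50 ± 0.22 without tamoxifen 1 (limma adjusted p = 0.411). Of its exon bases, 38.0% lay opposite other genes, among them Nans, and 29.9% of its 100-base stretches occurred elsewhere, so without strand its reads cannot be told from those of its neighbour. Trim56 and Trim65, which act on STING and on the RNA sensor MDA5, had log2 fold changes of 0.19 and 0.11, and of 0.17 and -0.031 without tamoxifen 1.

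Proteins that antiviral TRIM ligases act on or signal through did not share one direction. Of 18 tested genes 7 were higher and 11 lower, with a median of -0.091, and 9 were higher and 9 lower without tamoxifen 1, with a median of -0.014. With all libraries limma called none (0% of all genes), with 4 at an unadjusted p under 0.05 (4.47%), and DESeq2 called 1 (0.464%), Irf7, the transcription factor that amplifies interferon production. Irf7 had 255.1, 350 and 245 in oil and 1394, 890 and 824 in tamoxifen, with no overlap (DESeq2 adjusted p = 3.781e-06 with all libraries, limma adjusted p = 0.426, and 0.00277 in limma without tamoxifen 1). The RNA sensor Ddx58 had 461, 572 and 398 in oil and 814, 870 and 787 in tamoxifen (limma adjusted p = 0.666, and 0.0755 without tamoxifen 1). Levels of Mavs, at 4949 to 6180 in oil and 4377 to 5206 in tamoxifen, overlapped.

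Macrophage markers were higher in the tamoxifen libraries as well. Their summed normalized counts were 88.8 to 201 in oil and 246 to 344 in tamoxifen. All 10 had a higher mean, 6 were higher without overlap (7.86% of all tested genes), and none was at 0 in every library. Only 6 of the 10 passed the expression filter. Mertk (2.56 to 12.1 in tamoxifen) and Timd4 (4.55 to 5.11) were among those without overlap but did not pass it. The neutrophil sum was 16.2 to 27.0 in oil and 50.02 to 77.8 in tamoxifen, with Ly6g at 0 throughout. Of the 8 neutrophil genes, 6 were higher without overlap (7.86% of all tested genes), but 2 of the 8 passed the expression filter, and Mmp8 had a lower mean in tamoxifen (8.98 to 19.3 in oil and 0 to 13.6 in tamoxifen). The ranges of both sums were the same without tamoxifen 1. Of the NK cell list only Nkg7 was detected, at 58.9 to 159 in oil and 193 to 661 in tamoxifen, and the other 5 genes were at 0. The lineage-negative gate is meant to remove mature cells, and leukemic spleen cells were sorted with a commercial lineage cocktail and an antibody to c-Kit. The T cell sum was at most 8.08. Of the B cell genes, Ighm (3.86 to 21.6 in oil and 33.2 to 46.5 in tamoxifen) and Cd79b (0.929 to 2.89 and 5.05 to 16.6) did not overlap, while Igkc and Cd79a did. The share of these cells in the values of the antiviral members was not tested. In bulk RNA, fewer cells of a type and less RNA per cell cannot be told apart.

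Trim58, an erythroid ligase that removes the motor protein dynein during enucleation (chr11:58640465-58652404, plus strand), was the member with the largest fold change in limma with all libraries. Without tamoxifen 1 Trim30d was above it in limma (1.27 against 1.22) and below it in DESeq2 (1.31 against 1.47) and edgeR (1.32 against 1.48). It had 112, 110 and 81.7 normalized counts in oil and 610, 131 and 421 in tamoxifen. All 3 tamoxifen libraries were above the oil libraries, tamoxifen 2 only just. Its log2 fold change was 1.68 ± 0.56 (limma adjusted p = 0.666), and 1.22 ± 0.40 without tamoxifen 1 (limma adjusted p = 0.266). DESeq2 on all libraries called it higher (1.93, adjusted p = 0.0406), as did limma with library weights (1.67, adjusted p = 0.00971), but DESeq2 without tamoxifen 1 did not (adjusted p = 0.342), nor did edgeR with all libraries (adjusted p = 0.725).

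Trim10, the other member of the erythroid group, did not move with it. It had 832, 712 and 682 in oil and 1006, 669 and 627 in tamoxifen, above the oil libraries in tamoxifen 1 and below them in tamoxifen 2 and 3. Its log2 fold change was 0.021 ± 0.22 with all libraries and -0.19 ± 0.11 without tamoxifen 1 (limma adjusted p = 0.965 and 0.529). The summed erythroid markers, 10 of 10 tested and none at 0, ran from 58743 to 78540 in oil and were 98932, 63340 and 86722 in tamoxifen 1, 2 and 3, and 8 of the 10 had a higher mean. The megakaryocyte sum, nearly all from Itga2b, was 165 to 201 in oil and 638, 193 and 548 in tamoxifen, with Gp1bb at 0. Both sums were lowest among the tamoxifen libraries in tamoxifen 2, as was Trim58, and their part in the result was not tested.

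Of the 4 nuclear corepressors, 2 were higher and 2 lower with all libraries, and 3 were higher and 1 lower without tamoxifen 1. Trim28 (chr7:12999114-13031035, plus strand) had 8762, 8753 and 9535 in oil and 17783, 9257 and 8344 in tamoxifen. Its tamoxifen 1 value was far above the other 5 libraries, which overlapped. The log2 fold change turned from 0.30 ± 0.29 to -0.036 ± 0.083 without tamoxifen 1 (limma adjusted p = 0.667 and 0.901). Trim24, a nuclear receptor cofactor, and Trim33, a SMAD4 regulator needed for erythroid transcription, were at 0.051 and 0.052 without tamoxifen 1 and at -0.011 and -0.20 with it. Trim66, a member usually linked to the male germ line, was the lowest of the 4 in level and had the largest log2 fold change. It was at 14.2 ± 1.70 in oil and 24.7 ± 7.79 in tamoxifen (SD, n = 3 each) without overlap (log2 fold change 0.72 ± 0.35, limma adjusted p = 0.666, and 0.71 ± 0.39 without tamoxifen 1, limma adjusted p = 0.511), at some of the lowest counts among the tested members. It was named after its values were seen.

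Partners of the Trim28 complex did not pass the limma test in either fit. Of 13 tested genes 3 were higher and 10 lower with all libraries (median -0.12), and 6 were higher and 7 lower without tamoxifen 1 (median -0.049). In both fits 3 were lower without overlap (9.69% of all tested genes with all libraries and 16.8% without tamoxifen 1): Setdb1, Hdac1 and Morc3. Sumo2, the ubiquitin-like modifier, was at -0.87 with all libraries and 0.024 without tamoxifen 1, and Cbx5, a heterochromatin protein, at -0.69 and -0.13. Setdb1, the methyltransferase recruited by Trim28, had 2180, 2204 and 2179 in oil and 1916, 1907 and 2113 in tamoxifen (log2 fold change -0.15, limma adjusted p = 0.666, and -0.12 without tamoxifen 1).

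The members tied to p53, growth and the cell cycle, 13 by name and 10 tested, had 8 higher and 2 lower with all libraries (median 0.19), and 7 higher and 3 lower without tamoxifen 1 (median 0.052). Trim59 (chr3:69035288-69044755, minus strand) had the most negative log2 fold change with all libraries. It gave 1939, 2009 and 2128 normalized counts in oil and 298, 1791 and 1456 in tamoxifen. All 3 tamoxifen libraries were below the oil libraries, tamoxifen 1 by far the most. On the log2 scale its fold change was -1.14 ± 0.65 (limma adjusted p = 0.666), and -0.33 ± 0.10 without tamoxifen 1 (limma adjusted p = 0.245). With library weights the adjusted p was 0.0593 in limma.

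Trim35 (chr14:66297031-66311424, plus strand) had 2678, 2314 and 2483 in oil and 3465, 2533 and 2514 in tamoxifen, and only tamoxifen 1 left the oil range (log2 fold change 0.17, limma adjusted p = 0.668, and 0.021 without tamoxifen 1, limma adjusted p = 0.949). Trim13, an endoplasmic reticulum ligase (chr14:61598247-61605946, plus strand), had 60.2, 51.1 and 50.1 in oil and 20.4, 41.4 and 60.9 in tamoxifen. Its tamoxifen 3 value was the highest of all and its tamoxifen 1 value the lowest, and the log2 fold change was -0.51 ± 0.42 with all libraries and -0.092 ± 0.25 without tamoxifen 1 (limma adjusted p = 0.666 and 0.920).

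Trim11, a ligase for misfolded nuclear proteins, had 589, 634 and 579 in oil and 1628, 700 and 767 in tamoxifen with no overlap, and tamoxifen 1 was again the outlying value (log2 fold change 0.67 ± 0.33, and 0.29 ± 0.10 without tamoxifen 1, limma adjusted p = 0.666 and 0.292). Trim27 and Trim8, both high in tamoxifen 1, had log2 fold changes of 0.38 and 0.49 with all libraries and 0.0013 and 0.084 without it. These 3 were named after their values were seen.

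The traffic, autophagy and cytoskeleton members, 12 by name and 7 tested, divided into 4 higher and 3 lower in both fits, with medians of 0.25 and 0.019. Trim23, which also carries a GTPase domain of the ARF kind and takes part in autophagy (chr13:104178797-104203372, plus strand), had 683, 630 and 626 in oil and 202, 560 and 526 in tamoxifen. The groups did not overlap. Fitted with all libraries, its log2 fold change was -0.72 ± 0.40 (limma adjusted p = 0.666), and -0.25 ± 0.10 without tamoxifen 1 (limma adjusted p = 0.357). A fit corrected for GC content brought it to -0.036.

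Trim45 (chr3:100922202-100936920, plus strand) was near the filter, with 12.6, 18.3 and 8.36 in oil and 43.5, 17.2 and 15.5 in tamoxifen. Only tamoxifen 1 lay outside the oil range (log2 fold change 0.81 ± 0.51, limma adjusted p = 0.666, and 0.36 ± 0.43 without tamoxifen 1, limma adjusted p = 0.777). Trim9, best known from axon guidance and named after its values were seen, had 815, 945 and 917 in oil and 712, 884 and 569 in tamoxifen. Tamoxifen 2 lay within the oil range. Its log2 fold change was -0.33 in both limma fits (adjusted p = 0.666 and 0.467), and limma with library weights called it lower (-0.52, adjusted p = 0.0406; 6.36% of all genes called). With GC correction its direction turned, to 0.018 (limma adjusted p = 0.985).

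**Figure D4:**
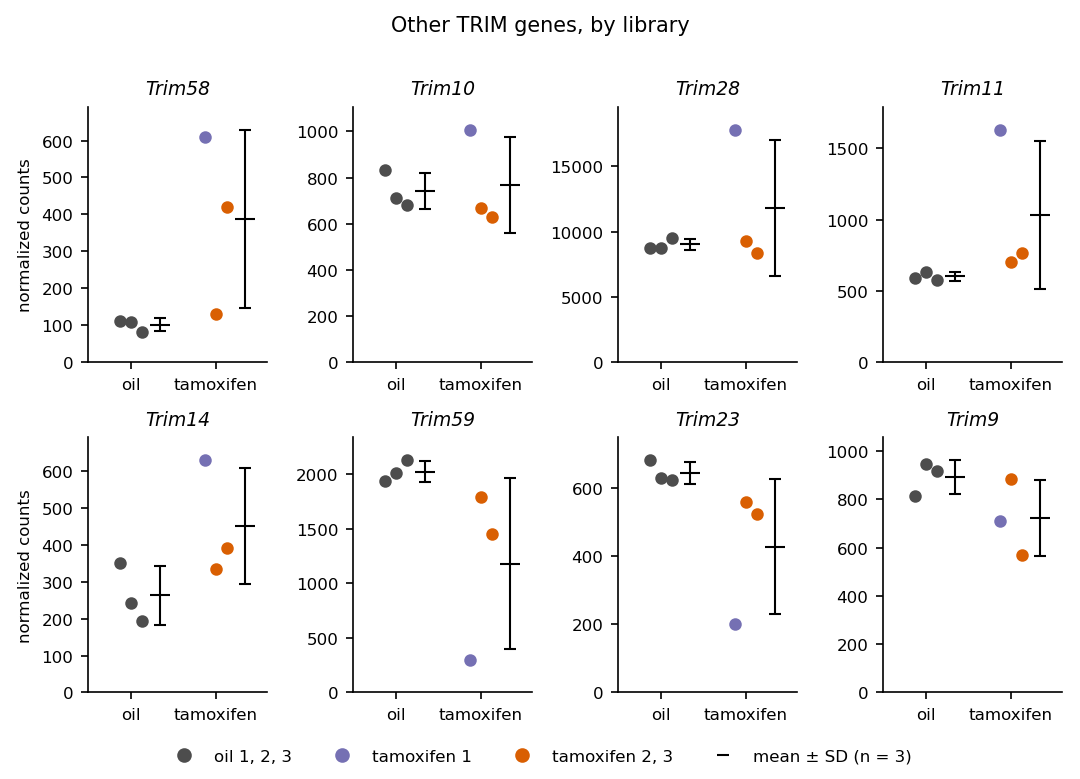
Normalized counts of 8 further TRIM genes by library, with the mean and SD of each group of 3; every axis starts at 0. Tamoxifen 1 is the highest library for Trim58, Trim10, Trim28, Trim11 and Trim14 and the lowest for Trim59 and Trim23, and in Trim58 all 3 tamoxifen libraries lie above the oil libraries.

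Of the 13 members outside these groups 2 were tested, and Trim7 and Trim41 had log2 fold changes of 0.79 and 0.33, or 0.67 and 0.12 without tamoxifen 1 (limma adjusted p = 0.511 and 0.621).

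Counted by overlap, 7 of the 37 tested members had every tamoxifen library above every oil library (7.86% of all tested genes), namely Trim11, Trim12a, Trim21, Trim44, Trim46, Trim58 and Trim66. Another 2, Trim23 and Trim59, had every tamoxifen library below (9.69%). Without tamoxifen 1 the counts were 10 above (12.6%) and 4 below (16.8%). Trim12c, Trim30a and Trim30d joined the first set, and Trim3 and Trim10 the second.

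Correction for GC content within each library left no member past an adjusted p of 0.05 (0.0163% of all genes). It gave 7 at an unadjusted p under 0.05 (6.68%), namely Trim11, Trim12c, Trim14, Trim30a, Trim30d, Trim58 and Trim59. In that fit 30 of 37 members were higher (49.5% of all genes), and the median was 0.20. All 8 tested genes of the chromosome 7 list were higher. Trim30d was at 1.39 ± 0.25, Trim12a at 0.91 ± 0.50 and Trim30a at 0.72 ± 0.26 (SE, limma adjusted p = 0.253, 0.680 and 0.680). Without GC correction Trim12a was at 0.35 with all libraries and 0.29 without tamoxifen 1. Of the relatives of the family under other names, Bspry had a log2 fold change of 1.40 with all libraries and 0.96 without tamoxifen 1. Pml, the organizer of nuclear bodies, was at 0.45 and 0.13, and Mid1 at 0.41 and 0.15. Their limma adjusted p ran from 0.666 to 0.694 with all libraries.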

How the data were processed

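The authors deposited 1 table of signal values for 6 libraries, made with STAR and DESeq2 on mm10 per the submitters' processing notes. Each value was a whole read count divided by a size factor: dividing by the value of 1 read gave whole reads for 100% of values (tolerance 0.01). Rows without a gene name (1832) held 0.0400% to 0.0614% of reads and were left out. The strand setting and counter are not given in the sources used here. Values plus 1 were taken to log2 and fitted with limma 3.58.1 (R 4.3.3, mean-variance trend, two-sided, Benjamini-Hochberg, threshold 0.05) over the 12298 genes that reached 10 in 3 or more libraries. An exact permutation test of 3 against 3 cannot go below 0.1. DESeq2 1.42.0 and edgeR 4.0.16 were run on the recovered reads, and other scalings, pseudocounts, filters, GC correction, library weights and left-out libraries were tried. Exon lengths, GC content and shared 100-base stretches came from GENCODE vM21.

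The members and gene lists were chosen with earlier results of these data known. Named members were the 3 family markers, those past a threshold, the 3 largest changes each way, the 3 highest per length and the tested genes of the chromosome 7 list. Replicate numbers did not pair the libraries.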

Additional observations from a re-analysis of the deposited data

How the results depend on the processing

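Unweighted limma called no member on the 6 libraries, nor on any 5 of them (0 to 0), and edgeR called none with all libraries or without tamoxifen 1. DESeq2 called 1 with all libraries (0.464% of all genes) and 1 without tamoxifen 1 (1.81%), and limma with library weights called 4 (6.36%). The number at an unadjusted p under 0.05, with the share of all genes, was 1 with all libraries (4.47%), 4 by DESeq2 (3.65%), 8 by DESeq2 without tamoxifen 1 (5.33%), 3 by edgeR (4.85%), 8 by edgeR without tamoxifen 1 (12%), 7 with GC correction (6.68%), 13 with library weights (23.4%) and 3 with no expression filter (4.58%). It was 0 to 9 with 1 library left out: 0 without oil 3 (2.05%) or tamoxifen 3 (3.32%), 3 without oil 1 (2.63%), 5 without tamoxifen 2 (8.72%) and 9 without tamoxifen 1 (12.1%). With the replicate number as a block it was 2 (3.46%), and 6 (5.21%) with the block and GC correction, with 0 called (0%). Same-numbered libraries had deviations correlated at -0.0236, 0.0607 and -0.153, so the numbers gave no pairing. The median log2 fold change was 0.12 without tamoxifen 1 and 0.12 to 0.30 over all left-out libraries.

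Trim12c turned positive in 11 alternatives: 0.035 (DESeq2), 0.28 (DESeq2 without tamoxifen 1), 0.41 (GC correction, with or without the replicate block), 0.054 (edgeR), 0.29 (edgeR without tamoxifen 1), 0.26 (library weights), 0.0023 (upper-quartile scaling) and -0.16 to 0.26 with 1 library left out. Trim5 turned positive at 0.21, 0.20, 0.22 and 0.14 in DESeq2 without tamoxifen 1, GC correction (0.20 with the block), edgeR without tamoxifen 1 and library weights, and was -0.46 to 0.20 with 1 library left out (0.20 without tamoxifen 1). Trim28 turned negative at -0.022, -0.024, -0.013 and -0.059 in the same fits, and ran from -0.036 (without tamoxifen 1) to 0.51 with 1 library left out. Trim13 turned positive at 0.061 with library weights, and Trim9 at 0.018 with GC correction. The cause was not tested. The DESeq2 and edgeR fits without tamoxifen 1 were chosen after seeing the data. With 3 mice a group and 1 library apart, no member's difference passed an adjusted p of 0.05 in unweighted limma. Depth limited Trim30b, Trim30c, Trim34b and Trim6.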
